A study of Mus musculus with 16 samples.

Results

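The 9 genes described here, Nr4a1, Nr4a2, Nr4a3, Crem, Creb1, Pde3b, Pde4b, Pde4d and Sik1, are textbook members of the response to cyclic AMP. They were taken by name from 22350 protein-coding genes of the mm9 mouse annotation. The rule uses no measured value, but the genes were chosen with earlier results of these data known. For each gene the window was the annotated gene body plus 50 kb on each side, and every enriched island of 16 ChIP-seq lists that overlapped this window was kept. An island is a stretch of genome in which the peak caller SICER found more reads than its background model allowed, and the covered length of a window is the number of kb of it that lie in islands.

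All 16 libraries came from 3T3-L1, a mouse fibroblast line that differentiates into adipocytes. Differentiation was started 2 days after confluence with MDI, a mixture of insulin, dexamethasone and isobutylmethylxanthine, the last of which blocks phosphodiesterases. H3K27ac, an acetylation found at active promoters and enhancers, was profiled in cells carrying an empty retrovirus (EV) and in cells carrying V5-tagged SETD5. Each kind of cell was taken at 0 h and 48 h in replicates A and B, which gives 8 libraries. The tagged protein was profiled with anti-V5 antibody at 0 h and 6 h with replicates A and B, H3K4me1, which marks enhancers whether or not they are active, at 0 h and 48 h once each, and endogenous SETD5 at 0 h and 6 h once each. SETD5 is a SET-domain protein that the study examined with the NCoR–HDAC3 co-repressor. The SETD5-V5 cells were a stable line driven by a weak viral LTR, so that these results hold for the moderately expressing line and not for a range of SETD5 levels. Some labels disagreed: replicate A of the anti-V5 libraries was labelled as having no virus although its title named SETD5-V5, and both H3K4me1 libraries were labelled as SETD5-V5 cells whereas the study names no virus for them. With 2 samples in a group, p-values measure only the spread between replicate libraries. The test used, limma, pools that spread over all groups fitted together and moderates it across all windows. The H3K4me1 and endogenous SETD5 libraries, with 1 sample per time, have no replicate check.

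In the pathway to which these genes belong, a hormone receptor activates adenylyl cyclase, cyclic AMP releases the catalytic subunits of protein kinase A, and the kinase phosphorylates the transcription factor CREB, encoded by Creb1. CREB binds the cyclic AMP response element TGACGTCA or its core TGACG. Its targets include negative regulators of the same signal: the ICER repressors made from an internal promoter of Crem, the kinase Sik1, which retains CREB coactivators in the cytoplasm, and phosphodiesterases, which hydrolyse cyclic AMP. The NR4A orphan nuclear receptors are immediate early targets. In preadipocytes cyclic AMP is part of the adipogenic stimulus.

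The lists held 31292 to 39949 H3K27ac islands covering 103.4 to 121.5 Mb, 49926 to 50276 H3K4me1 islands, and 2132 to 3293 endogenous SETD5 islands. The anti-V5 lists were much less even: 16054 and 6666 islands at 0 h and 35573 and 27220 at 6 h. The files held no read counts, so the depth behind an island is unknown and a window without an island was below the caller's threshold, not shown to lack the mark. All 6 preadipocyte markers examined had an H3K27ac island at a start in all 8 lists, while 3 of 7 adipocyte markers had one in every 0 h list, 7 and 6 in the EV lists at 48 h and 5 in both SETD5-V5 lists at 48 h, and no marker of 4 other cell types had one in any list.

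H3K27ac covered more of most of the 9 windows at 48 h than at 0 h. In EV cells 6 windows gained covered length in the limma test across 17869 gene windows (Pde4b, Pde4d, Crem, Pde3b, Nr4a1 and Sik1), 1 lost it (Creb1), and Nr4a2 and Nr4a3 did not pass; over all windows 23.0% rose and 13.3% fell. In SETD5-V5 cells 5 windows gained (the same genes as in EV cells except Sik1) and none lost, beside 14.1% and 11.4% of all windows. The median difference of the 9 windows on the log2(kb + 1) scale was 0.89 in EV cells and 0.76 in SETD5-V5 cells, beside 0.13 and 0.00 over all windows. In kb the gains were largest at Pde4d and Pde4b, whose windows are the longest, took the form of merged islands over Nr4a1 and Sik1, and amounted to a few kb at Crem. Leaving out 1 library at a time, the EV count ran from 3 to 7 and was lowest without EV 48 h replicate A, and the SETD5-V5 count was 3 or 4.

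**Figure D1:**
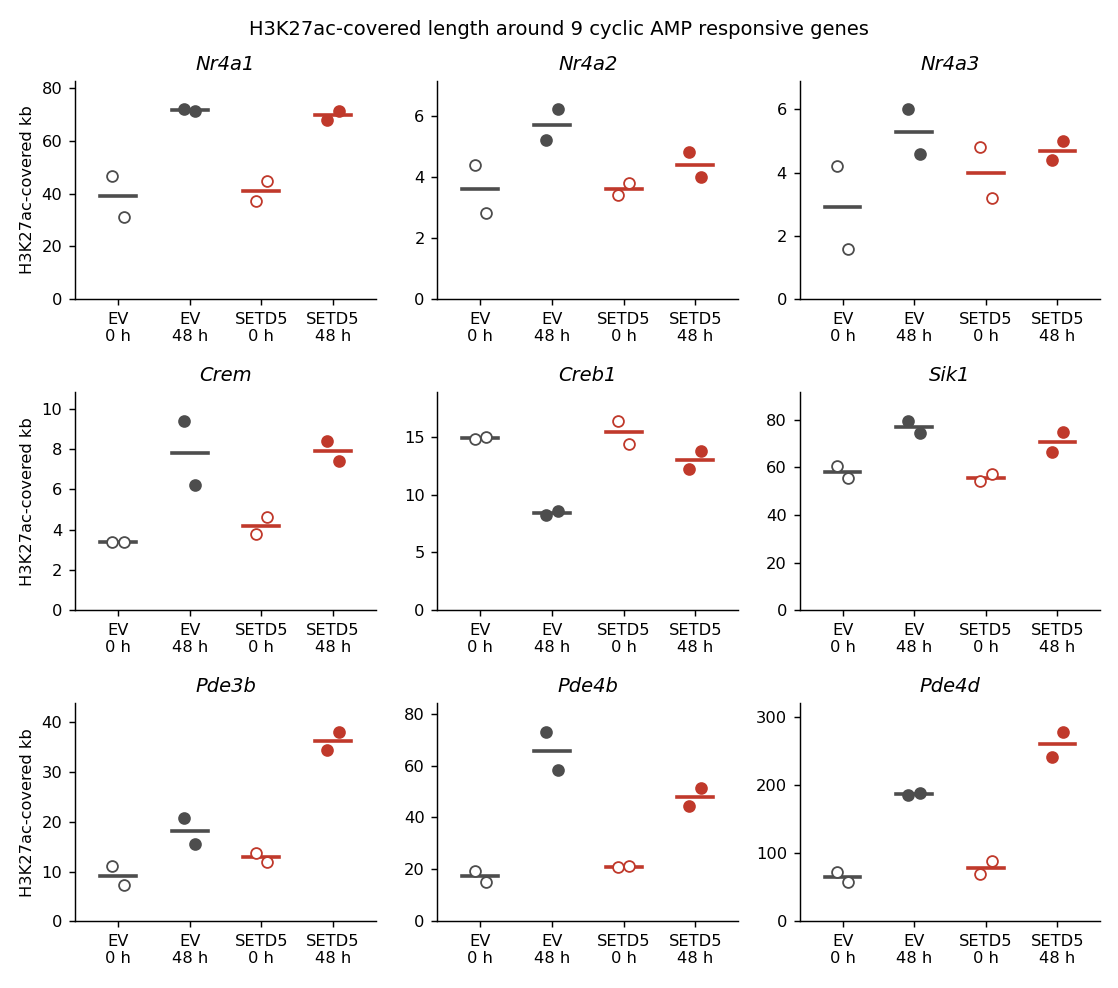
Covered length of H3K27ac islands in kb (vertical axis, linear) in each of the 9 gene windows; points are single libraries of both cell lines and times, and short lines are means of the 2 libraries of a group. Pde4d reached 186 and 190 kb in EV cells and 242 and 279 kb in SETD5-V5 cells at 48 h, while Creb1 lay lowest in EV cells at 48 h.

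Crem encodes activators and repressors of the CREB family, the short ICER repressors among them, and lies at chr18:3266046-3337746 on the minus strand (mm9). H3K27ac covered 3.4 and 3.4 kb of its window in EV cells at 0 h and 9.4 and 6.2 kb at 48 h. In SETD5-V5 cells it covered 3.8 and 4.6 kb at 0 h and 8.4 and 7.4 kb at 48 h. Every 48 h list lay above every 0 h list, and the difference was 0.98 ± 0.20 (SE, log2) in EV cells (limma, adjusted p = 0.00926) and 0.78 ± 0.20 in SETD5-V5 cells (adjusted p = 0.0294). The SETD5-V5 call was lost in 6 of 8 fits that left out 1 library, with adjusted p of 0.051 to 0.144, and held only without either EV 48 h library. With islands above each list's median score alone, neither call held (adjusted p = 0.141 and 0.0619).

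The gain at Crem lay mainly at 2 places in the gene, besides an island in the upstream flank. That flank island was the strongest of the window in EV 0 h replicate B (1400 bp) and in EV 48 h replicate A (3000 bp). The window takes in 1 other coding gene, Cul2, whose islands are counted in it. At the first promoter the island was present in all 8 lists and lengthened, from 2.2 and 2.0 kb to 4.0 and 2.6 kb in EV cells. The other place was a cluster of coding starts 56.0 to 56.7 kb into the gene, in the 3′ part from which short Crem transcripts begin. No 0 h list held an island there, whereas at 48 h the island was 2400 and 2200 bp long in EV cells and 2800 and 2600 bp long in SETD5-V5 cells. The merged region spanned chr18:3279201-3282400. It was a modest island in rank: 74.9% and 72.1% of the islands of the EV lists and 35.1% and 33.7% of those of the SETD5-V5 lists scored higher. SETD5-V5 had no island there at 0 h and islands of 4800 and 3000 bp at 6 h, while H3K4me1 and endogenous SETD5 had none at either time. The starts between the first promoter and this cluster had no island in any list.

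**Figure D2:**
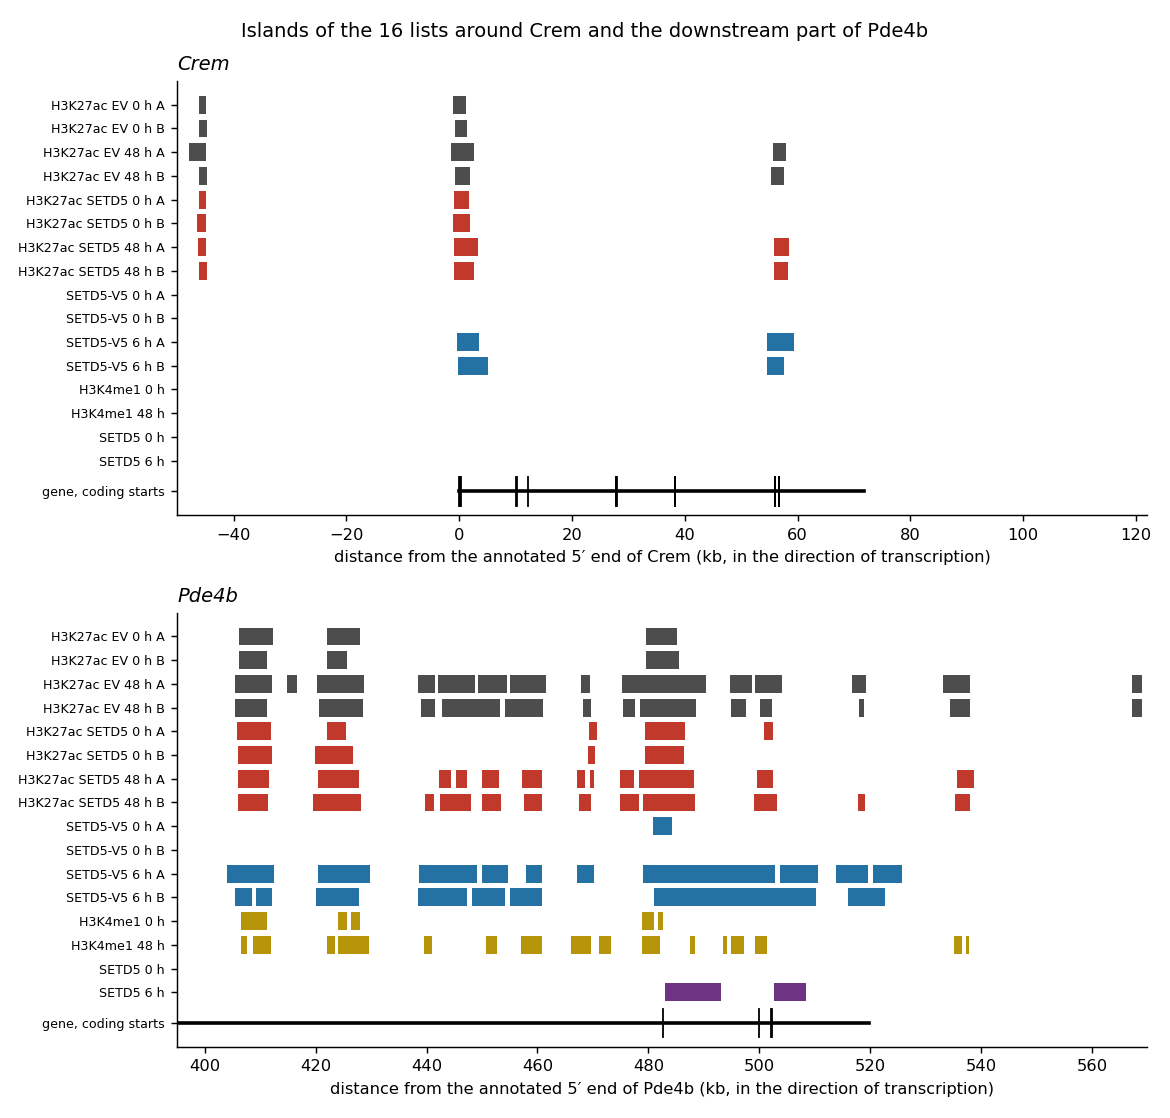
Islands in the Crem window and the downstream part of the Pde4b window, 1 row per list, with distance from the annotated 5′ end of the gene in kb on the horizontal axis and coding starts marked in the gene row. At Crem the 4 H3K27ac lists at 48 h and both SETD5-V5 lists at 6 h held an island at the internal starts that the 0 h lists lacked. Over the whole Pde4b window, which is not all drawn, the H3K27ac lists of 48 h held 12 to 14 islands against 4 to 6 at 0 h.

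Creb1, the kinase-responsive activator itself, was the exception. Its window (gene at chr1:64579378-64651121, plus strand) held 14.8 and 15.0 kb of H3K27ac in EV cells at 0 h and 8.2 and 8.6 kb at 48 h. In SETD5-V5 cells the values were 16.4 and 14.4 kb at 0 h and 12.2 and 13.8 kb at 48 h. The fall in EV cells was −0.76 ± 0.13 (limma, adjusted p = 0.0048), whereas the SETD5-V5 difference of −0.23 ± 0.13 did not pass (adjusted p = 0.258). The promoter island itself stayed, at 2600 and 2600 bp in EV cells at 0 h and 4400 and 2400 bp at 48 h. The merged region around it, chr1:64578201-64585800, was covered over 4400 and 4600 bp at 0 h and 4400 and 2400 bp at 48 h. Part of the loss in replicate B thus lay in that region, and the rest lay elsewhere in the window. The window also takes in the coding gene Mettl21a. In every H3K27ac list of 0 h the strongest island of the window lay in chr1:64660201-64665800, a region that overlaps an exon of Mettl21a. One region inside the gene, chr1:64609801-64613800, held islands of 3200 and 2200 bp in EV cells at 0 h and none at 48 h, while in SETD5-V5 cells it held 3600 and 3800 bp at 0 h and 1400 and 2400 bp at 48 h. The EV call did not hold with the gene body alone (adjusted p = 0.06), with islands above the median score (adjusted p = 0.192) or with the number of islands (adjusted p = 0.071), whereas with islands above the median score the fall in SETD5-V5 cells passed (−0.89, adjusted p = 0.00957).

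Nr4a1 (chr15:101097277-101105223, plus strand) is the NR4A member with the most acetylation by far. H3K27ac covered 46.8 and 31.2 kb of its 108 kb window in EV cells at 0 h and 72.0 and 71.4 kb at 48 h, and in SETD5-V5 cells 37.2 and 45.0 kb at 0 h and 68.1 and 71.4 kb at 48 h. The 48 h values of both lines lay in a narrow band above every 0 h value. The difference was 0.89 ± 0.21 in EV cells (limma, adjusted p = 0.0155) and 0.76 ± 0.21 in SETD5-V5 cells (adjusted p = 0.0373). The EV call was lost without either EV 48 h library (adjusted p = 0.0675 and 0.0597), and the SETD5-V5 call in 6 of 8 fits that left out 1 library (adjusted p from 0.0619 to 0.172).

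While the covered length at Nr4a1 rose, the number of islands did not. The window held 12 and 10 islands in EV cells at 0 h and 6 and 9 at 48 h, and the longest island grew from 7800 and 5400 bp to 30600 and 23000 bp. Counted by islands, the direction of the difference was reversed, to −0.52 in EV cells and −0.43 in SETD5-V5 cells (log2), since neighbouring islands had merged into long ones. The region around the gene, chr15:101095401-101128400, was covered over 15400 and 11000 bp in EV cells at 0 h and 30600 and 30800 bp at 48 h. In SETD5-V5 cells it was covered over 11800 and 14000 bp at 0 h and 29000 and 30400 bp at 48 h. The strongest island of the window was outscored by 4.14% and 4.23% of the islands of the EV lists at 0 h and by 0.716% and 0.743% at 48 h, so it also moved up in rank. The window takes in 3 other coding genes (Grasp, 9430023L20Rik and 6030408B16Rik), whose islands are counted in it. Likewise the windows of Nr4a3 (Stx17), Pde3b (Cyp2r1) and Pde4d (Depdc1b, Gm9000 and a second entry named Pde4d) take in other coding genes.

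A selection of promoters with the response element or its core is shown, 1 start per gene, because this is the DNA at which the pathway is known to act. Each run holds the 250 bases before a start (mm9), 5′ to 3′ on the strand of the gene, with TGACG, its reverse complement CGTCA and the full element TGACGTCA in capitals; a full element contains 2 overlapping cores. The Nr4a1 promoter held 4 cores, at 233, 213, 69 and 40 bases before the start, and no full element. An internal start of Nr4a2 had a full element 47 bases upstream, and Nr4a3 had 3 cores at 79, 61 and 53 bases.
Nr4a1, chr15:101097027-101097276, plus strand: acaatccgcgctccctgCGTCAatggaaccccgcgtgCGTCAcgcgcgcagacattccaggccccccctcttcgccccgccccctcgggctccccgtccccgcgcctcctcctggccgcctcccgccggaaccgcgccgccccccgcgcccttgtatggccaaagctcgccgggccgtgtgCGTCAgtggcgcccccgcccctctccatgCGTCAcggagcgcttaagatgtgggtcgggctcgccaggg
Nr4a2 internal start, chr2:56967450-56967699, minus strand: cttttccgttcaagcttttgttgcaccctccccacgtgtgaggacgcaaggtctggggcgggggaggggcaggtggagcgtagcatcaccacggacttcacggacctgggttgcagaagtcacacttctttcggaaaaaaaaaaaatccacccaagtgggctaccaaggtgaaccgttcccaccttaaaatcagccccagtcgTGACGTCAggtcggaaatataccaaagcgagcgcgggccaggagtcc
Nr4a3, chr4:48057775-48058024, plus strand: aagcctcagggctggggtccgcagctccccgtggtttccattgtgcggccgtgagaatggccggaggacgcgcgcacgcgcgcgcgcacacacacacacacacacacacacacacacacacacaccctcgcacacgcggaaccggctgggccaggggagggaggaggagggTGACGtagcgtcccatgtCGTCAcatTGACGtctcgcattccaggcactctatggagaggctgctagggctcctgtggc

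Nr4a2 and Nr4a3 carried far less acetylation than Nr4a1. Nr4a2 (chr2:56959241-56976414, minus strand) held 2 islands in every list, covering 4.4 and 2.8 kb in EV cells at 0 h, 5.2 and 6.2 kb at 48 h, and 3.4 to 4.8 kb in the 4 lists of SETD5-V5 cells. The promoter with the full element had islands of 3000 bp and none in EV cells at 0 h and of 3800 and 4400 bp at 48 h. Nr4a3 (chr4:48058025-48099319, plus strand) held 4.2 and 1.6 kb in EV cells at 0 h, 6.0 and 4.6 kb at 48 h, and 3.2 to 5.0 kb in SETD5-V5 cells. In EV cells the 48 h values of both genes lay above their 0 h values, and neither window passed limma (0.56 ± 0.20, adjusted p = 0.0682, and 0.77 ± 0.34, adjusted p = 0.123). The Nr4a3 gene body alone did pass (1.17, adjusted p = 0.0156). Of the 9 genes, only Nr4a3 lacked an H3K27ac island at its starts in any of the 8 lists, namely in EV 0 h replicate B, while 42.1% of all genes had one in all 8.

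Sik1, the salt-inducible kinase that restrains CREB coactivators, had an H3K27ac island of very high rank in its window already at 0 h. The gene is at chr17:31981193-31992737 on the minus strand. Its window held 60.4 and 55.4 kb of H3K27ac in EV cells at 0 h and 79.6 and 74.4 kb at 48 h, against 54.4 and 57.0 kb and then 66.6 and 74.8 kb in SETD5-V5 cells. Between 0.0938% and 1.10% of the islands in a list scored above the strongest island of this window. The difference was 0.41 ± 0.13 in EV cells (limma, adjusted p = 0.0469), a call that was lost whichever library was left out (adjusted p from 0.0625 to 0.156), and 0.34 ± 0.13 in SETD5-V5 cells (adjusted p = 0.104). As at Nr4a1, islands merged: in EV cells the island at the start was 7800 and 7600 bp long at 0 h and 36600 bp long in both lists at 48 h, yet the merged region chr17:31960001-31997600 was already covered over 34000 and 31600 bp at 0 h. In SETD5-V5 cells the start island was 7800 and 6800 bp long at 0 h and 13400 and 35000 bp at 48 h. A full response element lay 251 bases before the start, and the 300 bases shown here take it in, with 3 cores nearer to the start.
Sik1, chr17:31992738-31993037, minus strand: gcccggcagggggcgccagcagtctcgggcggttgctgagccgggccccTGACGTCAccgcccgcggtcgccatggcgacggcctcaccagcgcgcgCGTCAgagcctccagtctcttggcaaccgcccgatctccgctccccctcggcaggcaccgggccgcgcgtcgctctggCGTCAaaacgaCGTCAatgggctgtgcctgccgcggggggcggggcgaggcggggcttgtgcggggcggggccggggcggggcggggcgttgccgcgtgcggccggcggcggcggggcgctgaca

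Pde4b and Pde4d encode phosphodiesterases specific for cyclic AMP, and in EV cells they showed the strongest H3K27ac differences of the 9. Pde4b spans chr4:101760148-102279864 on the plus strand. Its window held 19.4 and 15.2 kb in EV cells at 0 h and 73.0 and 58.4 kb at 48 h, in 4 and 4 and then 14 and 13 islands. In SETD5-V5 cells it held 21.0 and 21.2 kb at 0 h and 44.6 and 51.2 kb at 48 h, in 6 and 4 and then 12 and 12 islands. The time difference was 1.87 ± 0.18 in EV cells (limma, adjusted p = 0.000478) and 1.14 ± 0.18 in SETD5-V5 cells (adjusted p = 0.00477), and both calls held whichever library was left out. Both EV lists at 48 h lay above both SETD5-V5 lists, but the vector difference of −0.44 ± 0.18 did not pass (adjusted p = 0.156).

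Among the starts of Pde4b, those in the 3′ part of the gene carried the acetylation, and the 5 upstream starts had no island in any H3K27ac list. The start 482.6 kb into the gene had islands of 5600 and 5800 bp in EV cells at 0 h and of 15200 and 10200 bp at 48 h, and of 7200 and 7000 bp, then 10000 and 9400 bp, in SETD5-V5 cells. A region before it, chr4:102202201-102221600, was without islands in all 0 h lists and held 18200 and 17400 bp in EV cells and 10800 and 12200 bp in SETD5-V5 cells at 48 h. A start 502.2 kb into the gene had no island in EV cells at 0 h, islands of 4800 and 2200 bp at 48 h, 1600 bp and none in SETD5-V5 cells at 0 h and 2800 and 4200 bp at 48 h, and a single core 206 bases upstream.
Pde4b start with islands only at 48 h in EV cells, chr4:102262078-102262327, plus strand: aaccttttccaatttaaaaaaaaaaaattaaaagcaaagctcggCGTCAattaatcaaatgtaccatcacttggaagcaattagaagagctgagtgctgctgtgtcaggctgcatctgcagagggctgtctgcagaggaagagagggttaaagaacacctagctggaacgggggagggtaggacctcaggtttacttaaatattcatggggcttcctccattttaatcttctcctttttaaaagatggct

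Pde4d, at chr13:109240142-110743669 on the plus strand, has the longest window of the 9, 1604 kb. H3K27ac covered 73.0 and 58.2 kb of it in EV cells at 0 h and 186.4 and 189.6 kb at 48 h, while in SETD5-V5 cells it covered 70.4 and 88.2 kb at 0 h and 242.2 and 279.0 kb at 48 h. The 48 h means were 188.0 ± 2.26 kb and 260.6 ± 26.0 kb (SD, n = 2). The difference was 1.51 ± 0.18 in EV cells (limma, adjusted p = 0.00102) and 1.71 ± 0.18 in SETD5-V5 cells (adjusted p = 0.00107), with neither call lost when any 1 library was left out. Islands went from 24 and 25 to 39 and 54 in EV cells and from 34 and 31 to 65 and 66 in SETD5-V5 cells. The strongest island did not move up in rank to the same degree: in EV cells 5.24% and 3.79% of islands at 0 h and 6.24% and 3.20% at 48 h scored above it.

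Among its many starts, those deep in the gene lengthened most. The start 810.7 kb into the gene had islands of 1400 and 1600 bp in EV cells at 0 h and of 10600 and 8400 bp at 48 h, and in SETD5-V5 cells of 1400 and 3000 bp and then 8200 and 12800 bp. At 1453 kb the island went from 1800 and 2400 bp to 11800 and 14600 bp in EV cells and from 2000 and 2000 bp to 13400 and 14800 bp in SETD5-V5 cells. The first of these has 2 cores, 231 and 194 bases upstream.
Pde4d start at 810.7 kb, chr13:110050598-110050847, plus strand: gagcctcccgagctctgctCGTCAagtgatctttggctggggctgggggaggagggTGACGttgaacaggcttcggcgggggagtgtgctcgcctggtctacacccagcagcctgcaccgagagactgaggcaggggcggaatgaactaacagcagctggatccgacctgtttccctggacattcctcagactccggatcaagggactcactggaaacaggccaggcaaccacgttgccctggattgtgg

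**Figure D3:**
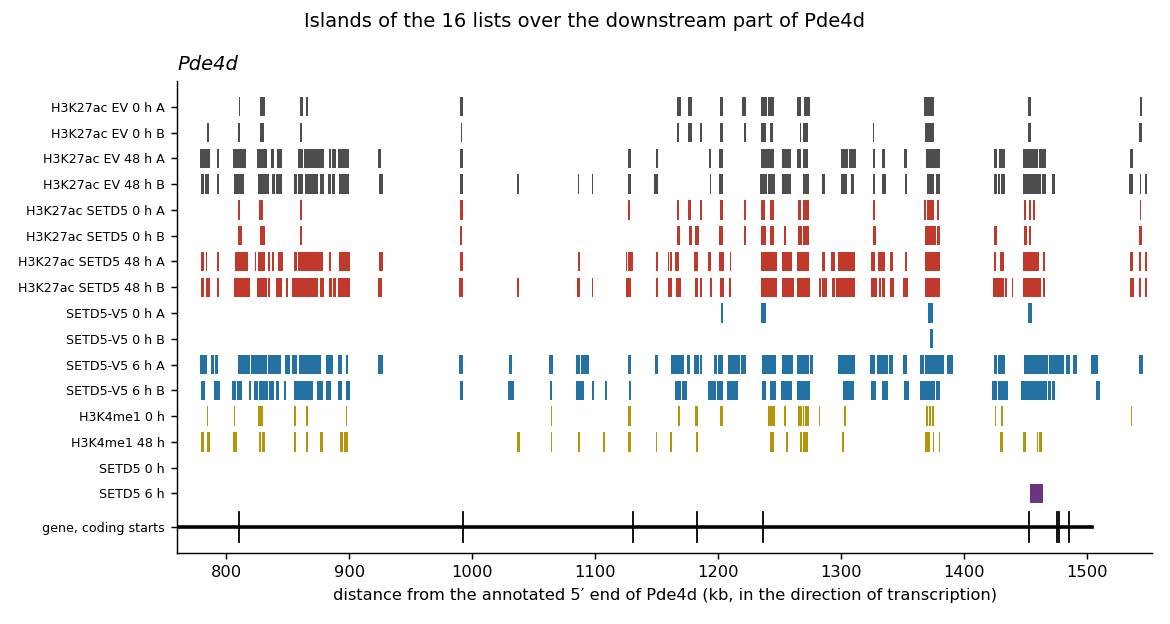
Islands in the downstream part of the Pde4d window, 1 row per list, with distance from the annotated 5′ end of the gene in kb on the horizontal axis. Over the whole window, which is not all drawn, the H3K27ac lists of 48 h held 39 to 66 islands against 24 to 34 at 0 h. The SETD5-V5 lists held 63 and 56 over the whole window at 6 h against 4 and 1 at 0 h.

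Pde3b encodes the insulin-regulated phosphodiesterase of fat cells that limits lipolysis (chr7:121558795-121682765, plus strand). Its window held 11.2 and 7.2 kb of H3K27ac in EV cells at 0 h and 20.8 and 15.6 kb at 48 h, but 13.8 and 12.0 kb and then 34.4 and 38.0 kb in SETD5-V5 cells. The SETD5-V5 lists at 48 h stood clear of all 6 others, with a mean of 36.2 ± 2.55 kb (SD, n = 2) against 18.2 ± 3.68 kb in EV cells. The time difference was 0.93 ± 0.23 in EV cells (limma, adjusted p = 0.0197), lost without EV 48 h replicate A (adjusted p = 0.105) or EV 0 h replicate B (adjusted p = 0.0853), and 1.42 ± 0.23 in SETD5-V5 cells (adjusted p = 0.00564), which held in all 8 such fits. With flanks of 20 kb the EV difference did not pass (0.56, adjusted p = 0.124). The promoter island was 2600 and 3400 bp long in EV cells at 0 h and 7000 and 7400 bp at 48 h, and 3800 and 3400 bp, then 10200 and 11000 bp, in SETD5-V5 cells. In rank the strongest island of the window climbed from 52.4% and 52.1% of islands above it in EV cells at 0 h to 8.12% and 6.59% at 48 h, and from 13.7% and 21.1% to 1.47% and 1.72% in SETD5-V5 cells.

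Taking the longest island at any start of a gene, both 48 h lists exceeded both 0 h lists at 8 of 9 genes in EV cells (all but Creb1), beside 15.4% of all genes, and at 7 of 9 in SETD5-V5 cells (all but Creb1 and Nr4a2), beside 10.0%. Only Creb1 was shorter in SETD5-V5 cells, beside 10.6%. These 9 genes have 52 coding starts in all, and a gene with more starts has more chances to carry an island.

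Between the vectors, at 0 h no window of the 9 differed between SETD5-V5 and EV cells (limma, adjusted p from 0.404 to 1), beside 2.24% of all windows in either direction, and none had an unadjusted p under 0.05. At 48 h Pde3b was higher in SETD5-V5 cells by 0.97 ± 0.23 (adjusted p = 0.0397) and Creb1 by 0.57 ± 0.13 (adjusted p = 0.0351), beside 6.11% of all windows that were higher, and none of the 9 was lower, beside 6.57%. The Creb1 call was lost whichever library was left out (adjusted p from 0.0502 to 0.166), and the Pde3b call in 6 of 8 such fits (adjusted p from 0.0687 to 0.178). With islands above the median score the Creb1 difference had the opposite sign (−0.29). The largest values that did not pass were 0.47 ± 0.18 at Pde4d (adjusted p = 0.138, and 0.042 when values were scaled to the length each list covers) and the lower value at Pde4b given above, in opposite directions. The 48 h EV libraries also enter the EV time difference, so these comparisons share samples.

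**Figure D4:**
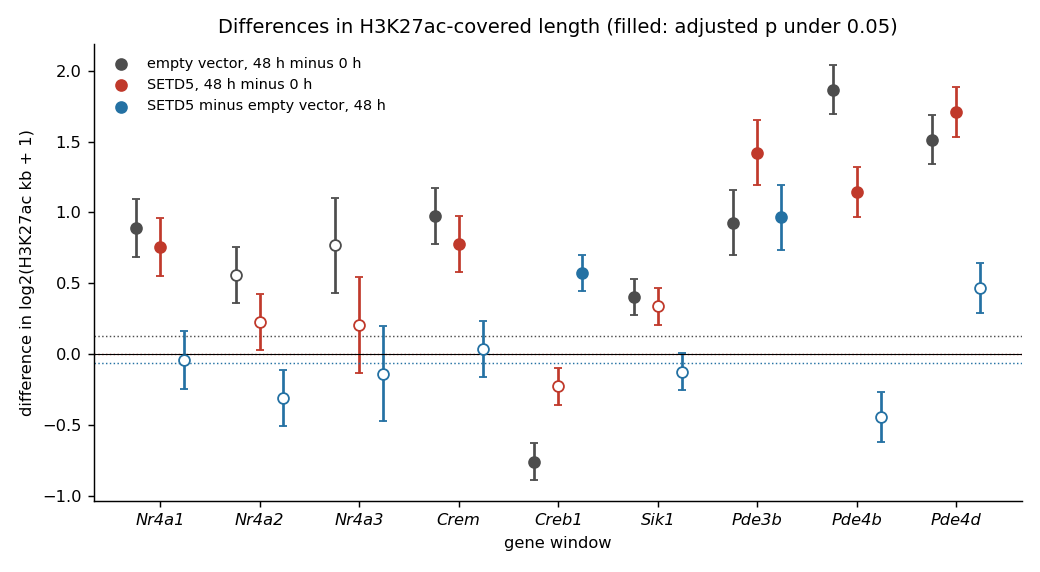
Differences in H3K27ac covered length on the log2(kb + 1) scale (vertical axis) with standard errors from limma for the 9 genes (horizontal axis), for time in EV cells, time in SETD5-V5 cells and vector at 48 h; filled points passed the adjusted threshold of 0.05 and dotted lines are medians of all windows. Pde4b at 1.87 and Pde4d at 1.51 were the largest in EV cells, and Creb1 at −0.76 was the only call below 0.

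A test of the interaction, whether the 48 h difference itself depended on the vector, called none of the 9 windows, beside 3.77% of all windows in either direction. The smallest adjusted p was 0.176, for Pde4b with −0.72 ± 0.25, followed by 0.178 for Creb1 with 0.53 ± 0.18. These were also the only 2 with an unadjusted p under 0.05 (0.0235 and 0.0245). At the level of start islands, Pde3b was longer in both SETD5-V5 lists than in both EV lists at 48 h, beside 5.85% of all genes, and Creb1, Nr4a2, Pde4b and Sik1 were shorter, beside 13.6%.

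Single regions were compared after islands of the 8 H3K27ac lists that overlap were merged. The 9 windows held 121 such regions. In EV cells 29 of them (23.97%) had islands in both 48 h lists and in neither 0 h list, beside 11.0% of 53150 regions genome-wide, and 18 of the 29 lay at Pde4d and 8 at Pde4b. The reverse, loss by 48 h, held for 7 (5.79%), beside 14.1%. In SETD5-V5 cells 35 were gained (28.9%, beside 12.3%), 25 of them at Pde4d, and 3 were lost (2.48%, beside 11.6%). At 48 h 16 regions (13.2%) had islands in both SETD5-V5 lists and in neither EV list, beside 9.86%, 12 of them at Pde4d, and 2 (1.65%) the opposite, beside 3.44%. Regions of 1 gene share their locus, so these counts describe mainly Pde4d and Pde4b.

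The regions that separated the vectors at 48 h were few and short. At Pde4d, chr13:109387801-109393000 held 2200 and 1400 bp in EV cells at 0 h and none at 48 h, but 1600 and 1800 bp and then 3000 and 4200 bp in SETD5-V5 cells. A further Pde4d region, chr13:110405001-110410000, behaved alike, with 3600 and 2200 bp and then none in EV cells and 2200 and 2600 bp and then 3600 and 4600 bp in SETD5-V5 cells. Both carried H3K4me1 at 0 h (4000 and 1800 bp) and not at 48 h, and both carried SETD5-V5 islands at 6 h. They were the longest of the 12 such Pde4d regions, and others differed from them. At chr13:109272601-109275400, chr13:109415601-109417800 and chr13:110532001-110534800 there was no H3K27ac island at 0 h, no H3K4me1 and no SETD5-V5. At chr13:109340001-109343600 SETD5-V5 was present at 6 h, but H3K27ac at 0 h and H3K4me1 were not. At Pde3b, chr7:121598401-121602200 held 2200 and 3800 bp and chr7:121627001-121629800 held 1200 and 2600 bp in SETD5-V5 cells at 48 h, with none in EV cells. The 2 regions with the opposite pattern were both at Pde4b, chr4:102254801-102258800 with 4000 and 2800 bp and chr4:102327401-102329200 with 1800 and 1800 bp in EV cells.

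SETD5-V5 itself was examined before and 6 h after MDI. At Crem no 0 h list held an island and the 6 h lists covered 8.8 and 8.4 kb, and at Pde3b likewise none and then 32.0 and 34.2 kb. Both windows met the filter, islands in at least 2 lists, through the 6 h lists alone, so their limma calls (adjusted p = 0.0443 each, and 0.127 without 0 h replicate B) are no support for a difference, and the 9.69% of 13825 windows called higher include other windows of this kind. Pde4b went from 3.4 kb and none to 80.8 and 69.8 kb, and Pde4d from 13.8 and 2.4 kb to 339.0 and 273.6 kb, in 4 and 1 and then 63 and 56 islands. These windows were the most different in kb, yet they narrowly missed the threshold (5.18 ± 0.91, adjusted p = 0.0571, and 5.43 ± 0.91, adjusted p = 0.0542). The lists themselves differed: the median of all windows was 1.91 higher at 6 h, and 1.02 when values were scaled to the length each list covers, with which Pde4d passed (adjusted p = 0.0415). Leaving out 1 anti-V5 library leaves a single list at 1 of the times. Without 0 h replicate A, Creb1, Nr4a3 and Pde4b also had no island at 0 h, so such a fit cannot decide whether these windows differ.

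At the remaining genes the anti-V5 lists of 0 h disagreed with each other. Nr4a1 was covered over 84.3 and 8.2 kb at 0 h and over 104.1 and 95.7 kb at 6 h, and Sik1 over 62.2 and 34.0 kb and then 70.0 and 51.8 kb. Creb1 had 12.4 kb and none, then 23.2 and 13.0 kb, Nr4a2 7.8 and 3.2 kb, then 17.6 and 11.2 kb, and Nr4a3 1.8 kb and none, then 4.8 and 4.6 kb. None of these 5 passed limma (adjusted p from 0.186 to 0.606). Nr4a1 and Sik1 held islands of very high rank at 6 h, with 0.0956% and 0.320% of islands scoring above the strongest one at Nr4a1 and 0.121% and 0.191% at Sik1. Their chromosomes were densely covered in the same lists: 184.5 kb per Mb on chromosome 15 and 113.6 on chromosome 17 at 6 h in replicate A, with 111.1 and 65.2 at 0 h in that replicate, and chromosome 2, which holds Nr4a2, had 121.4 at 6 h, and the part of this density in the values of Nr4a1, Sik1 and Nr4a2 was not tested.

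An anti-V5 island lay at a start of 7 of the 9 genes in 0 h replicate A and 1 (Nr4a2) in 0 h replicate B, beside 18.1% and 4.96% of all genes, and of 9 and 7 at 6 h, beside 40.8% and 21.4%. The start island was longer at 6 h in both lists for Crem, Nr4a2, Nr4a3, Pde4b and Pde4d, beside 14.5% of all genes. Merging the 4 anti-V5 lists gave 92 regions in the 9 windows, of which 51 (55.4%) were present in both 6 h lists and neither 0 h list, beside 29.7% of 37329. Of these 51 regions 36 lay at Pde4d. The longest was chr13:110093801-110119000 in Pde4d, with 21800 and 20400 bp, followed by chr13:110060601-110085000 with 23600 and 16200 bp, and Pde4b and Pde3b had chr4:102198601-102214800 with 15000 and 14600 bp and chr7:121598401-121613600 with 12200 and 15200 bp. The longest one coincides with an H3K27ac region that went from 4000 and 1400 bp to 20000 and 19800 bp in EV cells and from 1600 and 1800 bp to 22800 and 24200 bp in SETD5-V5 cells.

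The overlap of these 51 regions with the other marks is given as a description, since most of them share the Pde4d locus. H3K27ac of EV cells was found in 66.7% of them at 48 h, beside 52.2% of 11084 regions, and in 29.4% at 0 h, beside 48.6%. H3K4me1 at 0 h was found in 37.3%, beside 55.3%. Of the 51, 33.3% overlapped H3K27ac islands of both EV lists at 48 h and of neither EV list at 0 h, beside 12.75%. None of the 51 overlapped an endogenous SETD5 island at 6 h, beside 2.02%.

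**Figure D5:**
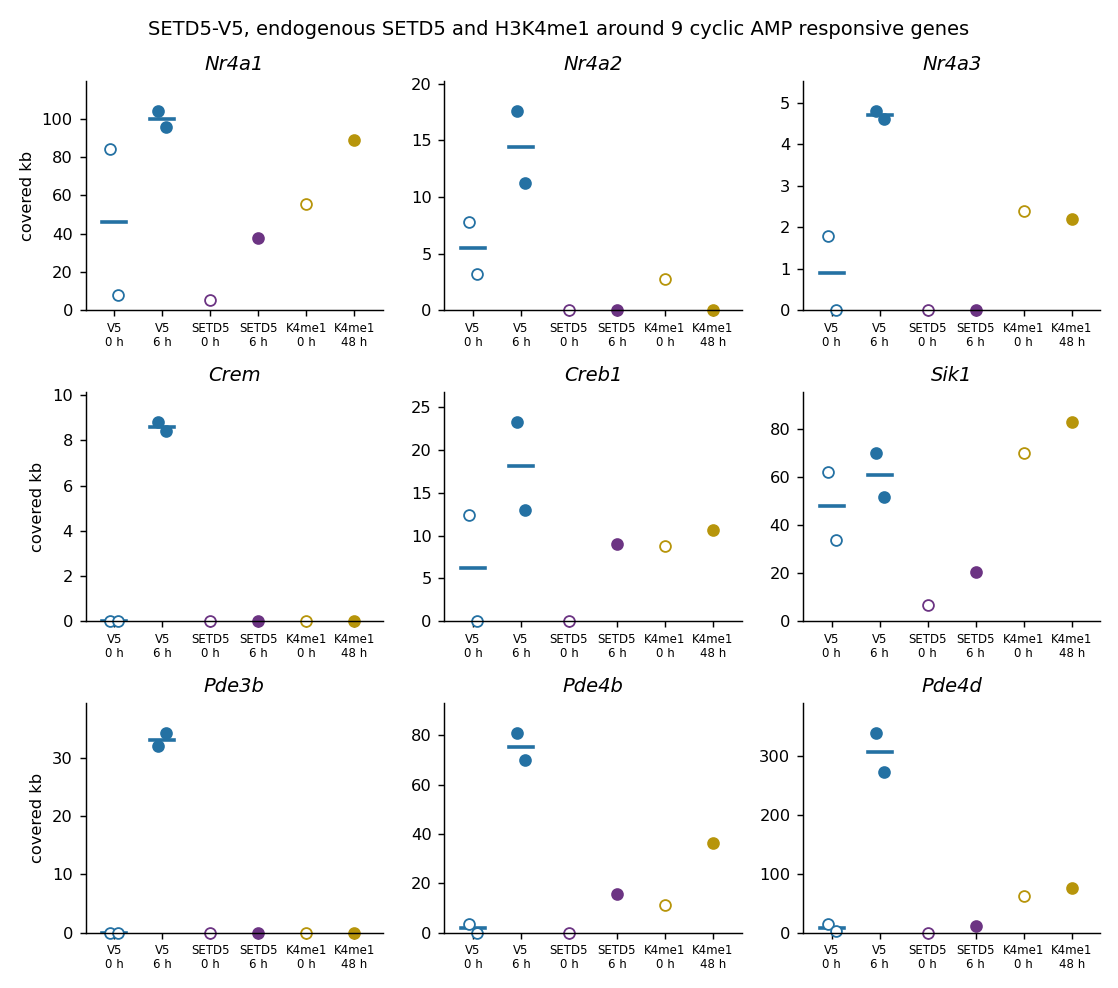
Covered length in kb (vertical axis, linear) of anti-V5, endogenous SETD5 and H3K4me1 islands in the 9 windows; each point is 1 library and short lines are means of 2. The anti-V5 values of Pde4d rise from 13.8 and 2.4 kb to 339.0 and 273.6 kb, whereas those of Sik1 overlap between 0 h and 6 h.

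Endogenous SETD5 had far fewer islands. Nr4a1 was covered over 5.4 kb at 0 h and 38.0 kb at 6 h and Sik1 over 7.0 and 20.4 kb. Pde4b, Pde4d and Creb1 had none at 0 h and 15.8, 11.2 and 9.0 kb at 6 h, and the other 4 windows had none at either time. The Pde4d value came from the start at 1453 kb, where the island measured 11200 bp. At 6 h 4 of the 9 genes had an endogenous SETD5 island at a start (Creb1, Nr4a1, Pde4d and Sik1), beside 6.06% of all genes, and at 0 h none had, beside 1.84%.

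H3K4me1 was compared by size alone. Taking a ratio of at least 1.5 of (kb + 1) at 48 h over 0 h, 2 windows were higher, Pde4b (11.2 to 36.4 kb, a ratio of 3.07) and Nr4a1 (55.6 to 88.8 kb, 1.59), beside 29.4% of 16649 windows. Nr4a2 was lower (2.8 kb to none), beside 16.1%. Pde4d, the window with the largest gain of H3K27ac in kb, went from 62.2 to 75.4 kb, and Sik1 from 70.0 to 83.0 kb. Creb1 went from 8.8 to 10.6 kb and Nr4a3 from 2.4 to 2.2 kb, and Crem and Pde3b had no H3K4me1 island in their windows at either time. A start with H3K4me1 was found in 5 of 9 genes at both times, beside 19.6% and 21.9%, with Nr4a2 at 0 h alone and Nr4a3 at 48 h alone. Chromosome 15 was covered over 94.4 kb per Mb in the 48 h list, against 35.9 on chromosome 4 and 26.2 on chromosome 13, and its part in the Nr4a1 value was not tested.

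Response elements were searched in the 250 bases before to 50 bases after each of 45993 coding starts, on both strands. The full element TGACGTCA lay in 2.14% of starts and at 2.84% of 22342 genes, and among the 9 genes at Crem and Nr4a2, in 7 of 52 starts. At Crem the full elements were at the internal starts that gained islands by 48 h, 97 and 30 bases upstream of one and 90 bases upstream of another, and none was at the first promoter. The core TGACG lay in 23.4% of starts and at 30.4% of genes, and all 9 genes had it at 1 or more starts, 27 of 52 in all. Extending the search to 1000 bases before and 100 after added Sik1 to the genes with a full element, beside 3.72% of genes. Genes with more starts have more chances to hold a match, and close starts of Crem share the same full elements in overlapping search stretches. The starts are therefore not separate cases. A match describes the letters only, and the 9 genes were picked for a known response to cyclic AMP.

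The upstream parts of the pathway were followed through lists of other genes. Their shares can be read beside the 23.0% of all windows that rose and the 13.3% that fell. Among genes for receptors and the stimulatory G protein, H3K27ac in EV cells fell by 48 h at Gnas and Ptger2 in the limma test, and of 8 adenylyl cyclases Adcy4 and Adcy5, the latter with no island in EV cells at 0 h, rose and none fell. Of 8 genes for protein kinase A and Epac 1 rose (Prkar2b, 0.73). Among 12 other phosphodiesterases 2 rose, led by Pde10a (3.21, adjusted p = 0.000178), and 4 fell (Pde1b, Pde11a, Pde1c and Pde4a). Pde1b met the filter through its 0 h lists alone, with 3.0 to 4.2 kb at 0 h and no island in any 48 h list. Pde7b, the other that rose, had no island in EV cells at 0 h and only 2.2 and 1.6 kb at 48 h. Of 8 partners of CREB 4 rose and none fell, the kinases Sik3 (1.30, adjusted p = 0.00078) and Sik2 and the acetyltransferases Crebbp and Ep300. Of 11 other CREB targets 5 rose (Rgs2, Areg, Cebpb, Fosb and Dusp1, from 0.73 to 1.82) and none fell. Areg had no island in EV cells at 0 h and only 1.2 and 2.0 kb at 48 h, so its call rests on short islands at 48 h alone.

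The same lists were counted in SETD5-V5 cells, beside 14.1% and 11.4% of all windows. No cyclase rose, while Gnas and 3 cyclases (Adcy2, Adcy3 and Adcy7) fell. Of 8 genes for protein kinase A and Epac 1 fell (Prkar1b), and of 8 partners of CREB 2 rose (Sik3, 0.91, and Sik2, 0.61) and none fell. Of the 12 other phosphodiesterases 3 rose (Pde10a, Pde7b and Pde8b) and 2 fell, and of the CREB targets 4 rose (Areg, Cebpb, Dusp1 and Rgs2) and 2 fell (Btg2 and Ppargc1a). At 0 h Pde7b held only 1.0 kb and none in SETD5-V5 cells, and Areg only 1.4 kb and none. Compared directly at 48 h, 6.57% of all windows were lower in SETD5-V5 than in EV cells and 6.11% were higher. SETD5-V5 cells were lower at the receptor gene Adrb1 (−0.93), at Adcy1 and Adcy3 of 8 cyclases, and at Ppargc1a of 11 CREB targets. They were higher at 4 of the 12 other phosphodiesterases, Pde8b (2.16), Pde7b (1.90), Pde10a (1.51) and Pde4a (0.69). Pde10a held 1.6 and 1.8 kb in EV cells at 0 h and 23 and 25 kb at 48 h, and 4.2 and 4.6 kb, then 55.0 and 89.4 kb, in SETD5-V5 cells. None of the genes named from these lists passed the interaction test or differed between vectors at 0 h.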

How the data were processed

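All 16 ChIP-seq libraries were used as the deposited island lists. According to the study's methods, the authors aligned the first part of each read with ELAND or Bowtie2 (genome build mm9) and ran SICER on each library by itself; use of an input control was not given in the sources used here. Each deposited list gives chromosome, start, end and the caller's score; scores were used only for ranks within a list. Island lengths were multiples of 200 bp, and gaps under 600 bp (histone marks) or 800 bp (SETD5) did not occur, so nearby islands were joined by the caller. No sample column was left unused.

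Covered kb per window (gene body plus 50 kb) was taken as log2(kb + 1) and tested with limma 3.58.1 (R 4.3.3) over all gene windows with islands in at least 2 lists, fitting the 4 H3K27ac groups together and the anti-V5 groups separately, with Benjamini-Hochberg adjustment at 0.05 over all windows tested. The limma step was tested on simulated data and recovered 87% of 200 changed windows, with 5.4% false calls. The changed windows differed by a median of 2.01 (log2), more than any H3K27ac difference of the 9 genes, and noise was drawn independently for each window. The share recovered therefore does not give the power for the smaller differences reported here, nor for windows that overlap and share islands. All 9 genes passed the filter, Crem and Pde3b in the anti-V5 fit only through the 6 h lists. A start carried an island when one overlapped 1000 bases before to 100 after it. Sequences are from the NCBIM37 (mm9) genome. The genes named are the 9 members and listed pathway genes that passed the test; the members, lists and tests were chosen with earlier results of these data known. Alternatives were other flanks, filters, pseudocounts, scalings, score limits, island counts, a replicate block and leaving out each library. One gene of the pathway lists is not reported here. The lists hold no read counts, so depth could not be modelled.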

Additional observations from a re-analysis of the deposited data

How the results depend on the processing

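Of the counts over the 9 genes or their regions, 224 stayed within 1.5 times the reported value and 56 moved, and of the values of single genes 541 kept their call, 73 lost it, 23 gained it and 4 changed sign. Unless a value is given here, the cause was not tested. With the number of islands in place of covered length, EV cells had 3 genes higher and 0 lower at 48 h. Over all 17869 windows 1748 rose and 1643 fell. SETD5-V5 cells had 3 higher, beside 1743, and the vector comparison at 48 h 0, beside 1386. The EV differences of Nr4a1 (−0.52) and Sik1 (−0.18) and the SETD5-V5 difference of Nr4a1 (−0.43) had the opposite sign, where islands had merged. With islands above the median score, 0 genes were lower in EV cells and 1 in SETD5-V5 cells, beside 2036 and 1609 of 16215 windows. At 0 h 2 were higher in SETD5-V5 than in EV cells (beside 671) and at 48 h 1 (beside 1340, with Creb1 reversed to −0.29). In that setting 2 had a negative interaction (beside 829) and 5 gained SETD5-V5 (beside 2413 of 10599 windows). Less H3K4me1 was found at 0 genes, beside 18.4% of windows. A start island in all 8 lists was found at 5, beside 29.2% of all genes. In SETD5-V5 cells at 0 h 4 had a longer start island, beside 6.84%. Of 66 regions 17 were then gained and 2 lost in EV cells, beside 12.45% and 16.05% of all regions. In SETD5-V5 cells 23 were gained, beside 13.91%. Regions in SETD5-V5 and in EV cells alone numbered 6 and 0 at 0 h, beside 5.83% and 2.57%. At 48 h they numbered 10 and 1, beside 11.31% and 3.69%.

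With equal numbers of islands per list, 1 gene was lower in SETD5-V5 cells, beside 1972 of 17559 windows. In the vector comparison at 48 h 1 was higher, beside 689. Of 103 regions, those in 1 vector alone numbered 4 (SETD5-V5, beside 3.18%) and 0 (EV, beside 3.63%) at 0 h. At 48 h those in EV cells alone numbered 4, beside 6.39%. Of 26 SETD5-V5 regions 13 were gained and 1 lost, beside 16.6% and 6.37%. Merging islands within 1000 bp left 0 regions in EV cells alone at 0 h and 1 at 48 h, beside 2.19% and 3.31%. Without flanks, 0 genes were lower in EV cells and 0 higher in the vector comparison at 48 h, beside 1109 and 599 of 12881 windows. That comparison had 1 higher with flanks of 100 kb (beside 1376 of 19163 windows) or a pseudocount of 0.2 kb (917 of 17869). It also had 1 with no filter on low values (558 of 22350). The last setting left 3 genes higher in SETD5-V5 cells, beside 1859, and flanks of 20 kb 1 gene with more H3K4me1, beside 32.1%. As percent of the window, 0 genes gained SETD5-V5, beside 0 of 13825 windows.

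Leaving out each library in turn, the genes higher at 48 h numbered 3 to 7 in EV cells and 3 to 4 in SETD5-V5 cells, those of the vector comparison at 48 h 0 to 1, and those gaining SETD5-V5 0 to 7. In the anti-V5 fit Crem and Pde3b had no island at 0 h and so met the filter through the 6 h lists alone. Over all windows, the calls at 48 h fell in EV cells from 4109 higher to as few as 2563, between vectors from 1091 higher and 1174 lower to as few as 249 and 229, and for the interaction from 283 and 390 to as few as 39 and 40, and the anti-V5 calls went from 1339 to 7381 without 0 h replicate A and to 0 by limma without any of the other 3 libraries, where 178 to 3852 windows had an unadjusted p under 0.05. Between groups, the deviations of replicates A and B from their group means correlated between −0.03 and 0.118 for H3K27ac and at 0.175 for the single anti-V5 pair. Whether a letter marks libraries that were handled together was not tested. With the letter as a replicate block, 1 gene was higher in the vector comparison at 48 h, beside 891 of 17869 windows. In that setting 0 gained SETD5-V5 (0 of all windows by limma, with 6345 at an unadjusted p under 0.05). Sik1 in EV cells, Nr4a1 in SETD5-V5 cells and Creb1 between vectors were then no longer called. The lists give no counts, so weak enrichment below the caller's threshold is not seen.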

Other observations

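Genes whose H3K27ac covered length followed that of a member most closely over the 8 lists were looked up on other chromosomes, as a description over lists that share their groups. For Pde4b these were Elk4 (Pearson r = 0.998), Daglb and Scd2 (0.995), the last a stearoyl-CoA desaturase of lipid synthesis. For Crem they were Samhd1 (0.988), Atf5 (0.987) and Abca1 (0.985), and for Pde4d Adamtsl4 (0.997) and Pbrm1 (0.996). Between 16430 and 17432 windows were compared for each gene, and even Nr4a3, with the lowest value among the members for its closest gene, had r = 0.971 (Mfi2).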
